A study of Arabidopsis thaliana with 6 samples.

Results

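Cell wall polysaccharide synthesis genes were selected in Arabidopsis thaliana seedlings as probe sets with a single gene whose RefSeq symbol starts with CESA, CSLA, CSLB, CSLC, CSLD, CSLE, CSLG, GAUT, GATL or IRX followed by digits, with or without AT in front. This rule found 11 probe sets, each for a different gene, of 13513 probe sets with a single gene (13356 genes) and 22746 tested. They comprised CSLC04, CSLC5, CSLC6, ATCSLC08 and CSLC12, CSLA01 and CSLA03, CSLD2, GAUT15, and IRX15 and IRX15-L. The CSLC family was read completely, with 5 of 5 genes, whereas 2 of 9 CSLA, 1 of 6 CSLD and 1 of 15 GAUT genes were found. No CESA, CSLB, CSLE, CSLG or GATL gene was named by the probe table used here, so the cellulose synthase subunits of the primary and secondary wall were not analysed here.

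RNA from seedlings aged 10 days was hybridised to Affymetrix GeneChips. There were 3 arrays of wild type (WT) and 3 of an OsHOX24-overexpression line, 35S::OsHOX24, both of ecotype Columbia. The study's methods describe Arabidopsis growth in pots or on MS plates, in 14 h of light and 10 h of dark. They name no stress treatment for the array seedlings of either group. The line, HZIP1-2.3 in the study's text, carries a rice HD-ZIP I homeobox gene under the CaMV 35S promoter, which is active in most tissues, and is a single homozygous line, so the genotype and effects of its insertion cannot be told apart. By real-time PCR in the study, HZIP1-2.3 had the lowest transgene expression of the homozygous lines measured. OsHOX24 is a rice gene, and its level was not analysed here, so the genotype labels could not be checked on the arrays. The 3 light-harvesting genes LHCB4.1, LHCB4.2 and LHCB4.3, markers of green tissue, had signals of 8.99 to 14.6 (log2) over all arrays. Whole seedlings were used, so fewer cells of a type and less RNA per cell cannot be told apart. Signals are MAS5 values on the log2 scale, on which a difference of 1 is a 2-fold change. Because probe sets differ in how strongly they bind, signals are compared between arrays and not between genes.

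The plant cell wall is built from cellulose, hemicelluloses and pectins, and a thin primary wall is laid down during growth while a thick secondary wall forms later in cells such as those of the xylem. Cellulose is made at the plasma membrane by CESA complexes, whereas the CSLC and CSLA proteins make the backbones of the hemicelluloses xyloglucan and mannan in the Golgi. Xyloglucan is typical of the primary wall of Arabidopsis, and xylan of its secondary wall. The GAUT family includes the enzymes that polymerise galacturonic acid into pectin.

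None of the 11 genes passed a test of the difference between the genotypes. With limma, 0 of the 11 were at least 2-fold different at an unadjusted p of at most 0.05, the study's thresholds, where 2.53% of all probe sets were past them. None had an unadjusted p under 0.05, compared with 3.45% of all probe sets, and the lowest unadjusted p among them was 0.189, for CSLA03. With the methods' t-test, 0 of the 11 were past the same thresholds, where 1.28% of all probe sets were, and 0 had an unadjusted p under 0.05, compared with 3.51%. No probe set of the array passed an adjusted p of 0.05 with limma. The WT and 35S::OsHOX24 arrays overlapped for all 11 genes, whereas 7.17% of all probe sets had no overlap. With so few genes, none past the thresholds is near what those background shares give. The log2 difference between 35S::OsHOX24 and WT was below 0 for 7 genes and above 0 for 4 (GAUT15, at -0.01, was above 0 after median centring), with a median of -0.15 over the 11 and of -0.03 over all probe sets.

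**Figure D1:**
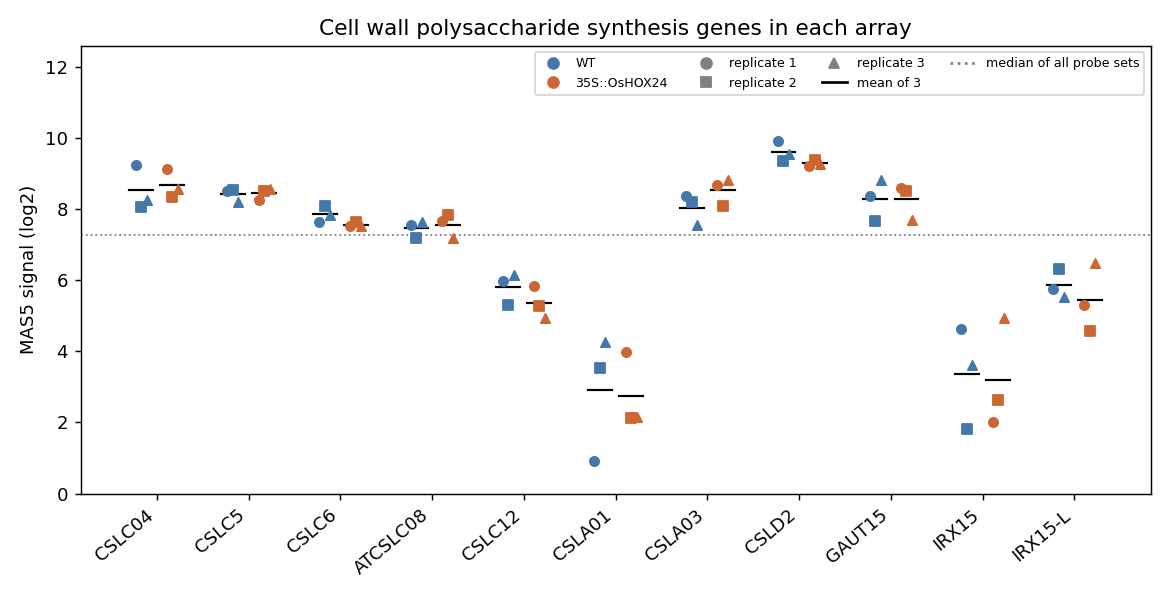
The MAS5 signal (log2, vertical axis) of each of the 11 genes (horizontal axis) is plotted in the 3 WT arrays (blue) and the 3 35S::OsHOX24 arrays (orange), with the symbol giving the replicate number, black bars the group means and the dotted line the median of all probe sets. The genotypes overlap for every gene, and CSLA01 and IRX15 have the widest spread, 3.35 and 3.12 (log2) from the lowest to the highest array.

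How large a difference could have been missed varied among the genes. The 95% interval of the difference lay within 2-fold in both directions for 4 of the 11 genes, CSLC5, CSLC6, ATCSLC08 and CSLD2, compared with 40.8% of all probe sets and 65.4% of those above the median signal. For the other 7 genes the interval reached 2-fold or more. Of these, CSLA01 and IRX15 had the widest intervals, from -2.57 to 2.27 and from -2.62 to 2.30 (log2). A change of several-fold in either direction therefore lay inside the interval of each of these genes.

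**Figure D2:**
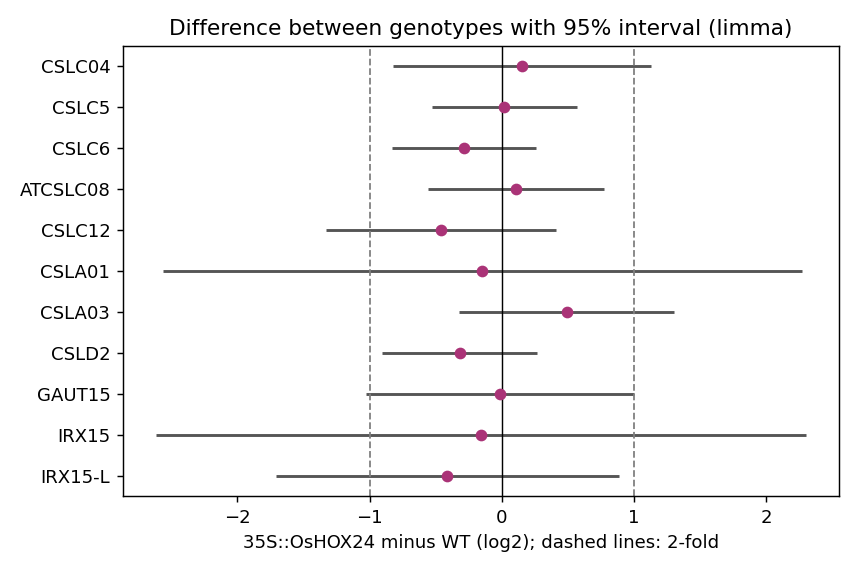
The log2 difference between 35S::OsHOX24 and WT (horizontal axis) is shown for each of the 11 genes (vertical axis) as a point with its 95% interval from limma over 3 arrays per genotype, and dashed lines mark 2-fold. Every interval includes 0, and those of CSLC5, CSLC6, ATCSLC08 and CSLD2 stay inside the 2-fold lines.

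The CSLC genes encode the glucan synthases of the xyloglucan backbone, and CSLC04 is the best studied of them. The signal of CSLC04 was 9.24, 8.08 and 8.27 (log2) in WT replicates 1, 2 and 3 and 9.13, 8.36 and 8.56 in those of 35S::OsHOX24. Replicate 1 was the highest array in both genotypes, and the genotypes overlapped. The log2 difference was 0.15, with a 95% interval of -0.82 to 1.13.

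CSLC5 was the steadiest gene of the 11, and its highest and lowest arrays differed 1.27-fold. Its signal was 8.51, 8.55 and 8.22 (log2) in WT and 8.26, 8.51 and 8.57 in 35S::OsHOX24, in the order of the replicates. The means were 8.43 ± 0.18 (SD, n = 3) and 8.45 ± 0.16 (SD, n = 3), and the 95% interval of the difference ran from -0.53 to 0.57 (log2), so a change beyond 1.49-fold up or 1.44-fold down lay outside it.

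CSLC6 came closest to a separation of the genotypes. Its signal was 7.65, 8.09 and 7.83 (log2) in WT and 7.54, 7.65 and 7.52 in 35S::OsHOX24. The lowest WT array and the highest transgenic array met at 7.65, so the groups just overlapped. The log2 difference was -0.28 (standard error 0.22, 95% interval -0.83 to 0.26, unadjusted p = 0.251 with limma). The SD was 0.22 between WT arrays and 0.068 between 35S::OsHOX24 arrays.

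ATCSLC08, listed elsewhere as CSLC8, had signals of 7.55, 7.20 and 7.64 (log2) in WT and 7.68, 7.83 and 7.20 in 35S::OsHOX24. One array of each genotype was low at 7.20, and the other transgenic arrays lay above the other WT arrays. CSLC12 lay under the array median throughout, with 5.99, 5.30 and 6.15 (log2) in WT and 5.83, 5.29 and 4.95 in the transgenic line. Its log2 difference of -0.46 (standard error 0.36) was of the size of the SD within genotypes, 0.45. The 5 CSLC genes did not share a direction, with 3 log2 differences above 0 and 2 below it.

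The CSLA genes encode synthases of the mannan backbone, and CSLA03 is one of those known to make glucomannan in stems. CSLA03 had the largest absolute difference of the 11 genes. Its signal was 8.37, 8.21 and 7.57 (log2) in WT and 8.68, 8.10 and 8.83 in 35S::OsHOX24. Replicate 3 of WT was the lowest array and replicate 3 of 35S::OsHOX24 the highest, and the other 4 arrays interleaved. The mean was 1.41-fold higher in the transgenic line, with a 95% interval from 0.80-fold to 2.47-fold, an unadjusted p of 0.189 and an adjusted p of 1 with limma. CSLA01, from the same family, gave 0.90, 3.54 and 4.26 (log2) in WT and 3.99, 2.12 and 2.15 in 35S::OsHOX24. These are signals at the low end of the array, where replicate 1 of WT was 2.64 below the next WT array and 1.22 below the lowest transgenic array. Without replicate 1 of both genotypes, CSLA01 was past the thresholds (log2 difference -1.76, unadjusted p = 0.0117 with limma). This was the only alternative run in which any of the 11 genes was past them. In the same run 324 of the 22746 probe sets were past them and higher, and 405 lower.

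CSLD2 belongs to the family closest to CESA, whose members act in tip-growing and dividing cells, and CSLD2 itself is needed for normal root hairs. Its signal was 9.92, 9.36 and 9.55 (log2) in WT and 9.22, 9.39 and 9.27 in 35S::OsHOX24. Replicate 2 of WT was the only WT array inside the transgenic range. The log2 difference was -0.32 (standard error 0.24, 95% interval -0.90 to 0.27, unadjusted p = 0.230 with limma), or 1.25-fold. The root hair expansin gene EXPA7, the only 1 of 5 listed root hair markers named here, had signals of 2.86, 5.47 and 3.28 (log2) in WT and 4.69, 4.70 and 5.45 in 35S::OsHOX24. The groups overlapped and the values were below the median, with a log2 difference of 1.08 (95% interval -0.67 to 2.83). Its highest arrays were WT replicate 2 and 35S::OsHOX24 replicate 3, a pair that 31.1% of all probe sets had apart from the other 4 arrays. Without WT replicate 2, EXPA7 was past the thresholds (log2 difference 1.87, unadjusted p = 0.00348 with limma). In that run 257 of the 22746 probe sets were past the thresholds and higher, and 494 lower. The WT arrays it kept read 2.86 and 3.28 (log2), below all 3 transgenic arrays, and the cause was not tested.

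GAUT15, a member of the galacturonosyltransferase family of pectin synthesis, had nearly equal means, 8.29 in WT (log2, SD 0.59, n = 3) and 8.28 (SD 0.50, n = 3) in the transgenic line. The arrays behind them were 8.38, 7.66 and 8.83 in WT and 8.61, 8.53 and 7.70 in the transgenic line. In each genotype 1 array was well below the others, and the equal means came with a 95% interval of -1.02 to 0.998, about 2-fold on both sides.

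IRX15 and IRX15-L encode a pair of related DUF579 proteins that act redundantly in xylan synthesis of the secondary wall. They were the only genes of secondary wall xylan that the rule found. IRX15 was 4.64, 1.83 and 3.61 (log2) in WT and 2.02, 2.63 and 4.95 in 35S::OsHOX24. High and low arrays occurred in both genotypes, and the SD of 1.42 in WT and 1.55 in the transgenic line far exceeded the log2 difference of -0.16. IRX15-L was 5.77, 6.31 and 5.52 (log2) in WT and 5.30, 4.57 and 6.49 in 35S::OsHOX24. The transgenic arrays held both the highest and the lowest value, and the log2 difference was -0.41 (95% interval -1.71 to 0.88). Both genes lay under the array median on all 6 arrays, and replicate 3 of 35S::OsHOX24 was the highest array for each.

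**Figure D3:**
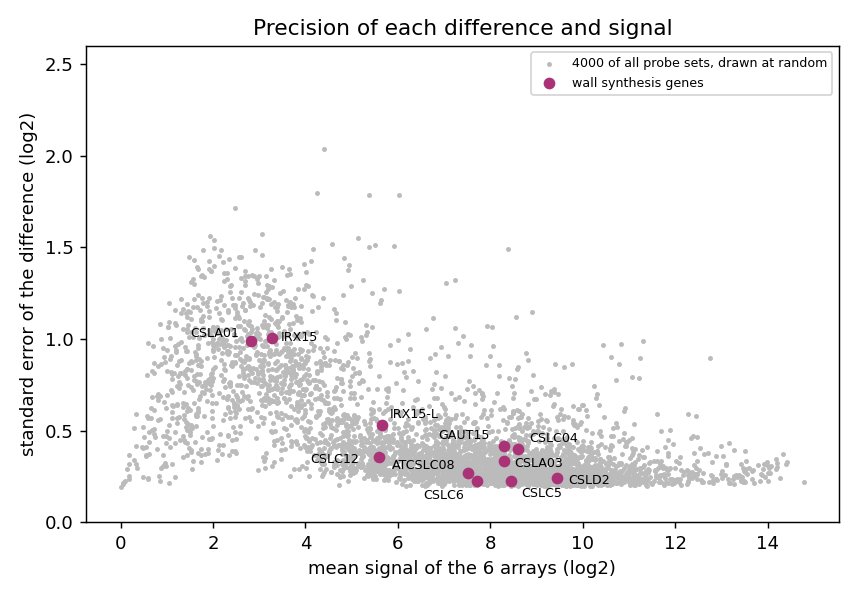
The standard error of the difference between the genotypes (log2, vertical axis, limma, 3 arrays per genotype) is plotted against the mean signal of the 6 arrays (log2, horizontal axis) for the 11 genes (purple) and for 4000 probe sets drawn at random (grey). The 7 genes above the median signal have standard errors between 0.22 and 0.41, and the low-signal genes CSLA01 and IRX15 have 0.99 and 1.01.

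The secondary wall pair was set against the xyloglucan genes within each array, as a description without a test. The mean signal of IRX15 and IRX15-L averaged 4.61 in WT (log2, SD 0.57, n = 3) and 4.33 (SD 1.21, n = 3) in the transgenic line. That of the 5 CSLC genes averaged 7.62 with an SD of 0.17 and 7.53 with an SD of 0.16. The pair minus the CSLC mean was -2.58, -3.37 and -3.06 in WT and -4.03, -3.92 and -1.64 in 35S::OsHOX24. The transgenic arrays lay on both sides of all WT arrays, and the change between genotypes in this contrast was -0.19, smaller than the SD of 0.40 in WT and 1.35 in the transgenic line. Without replicate 3 of 35S::OsHOX24 the change was -0.97, and without replicate 1 or 2 of that line it was 0.22 or 0.17. Its size thus depended on single arrays, and it had no settled direction.

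Some of the genes varied more between arrays of 1 genotype than between genotypes, in a pattern that crossed the labels. GAUT15 and ATCSLC08 were lowest in replicate 2 of WT and replicate 3 of 35S::OsHOX24, and IRX15-L was highest in the same 2 arrays. For GAUT15 these arrays read 7.66 and 7.70 (log2), compared with 8.38 to 8.83 in the other 4. For IRX15-L they read 6.31 and 6.49, compared with 4.57 to 5.77. With CSLC5, whose gap to the others was small at 0.033, 4 of the 11 genes, or 36.4%, had these 2 arrays apart from the other 4, and so did 31.1% of all probe sets. The share among the wall genes is thus near that of the whole array. Over all probe sets the 2 arrays had the highest correlation of any pair, 0.955, whereas the other pairs ranged from 0.928 to 0.947. They also had the smallest excess of 3' over 5' signal for the GAPDH control probes, which grows as transcripts lose their 5' part, at 1.63 and 2.39 (log2), compared with 3.25 to 4.80 in the other 4. The actin control did not share this order. Its excess of 3' over 5' signal was lowest in WT replicate 2, at 5.37 (log2), but 6.57 in 35S::OsHOX24 replicate 3, the second highest of the 6 arrays. In all 6 arrays both controls had more 3' than 5' signal, by 1.63 to 4.80 (log2) for GAPDH and 5.37 to 6.84 for actin. The part of RNA integrity in these genes' values was not tested. CSLC04 showed a different pair, replicate 1 of both genotypes, which was 0.57 above the other arrays, and 14.6% of all probe sets had that pair apart. WT replicate 3 and 35S::OsHOX24 replicate 1 were apart for 3 of the 11 genes (CSLA01, CSLC5 and GAUT15), and for 11.7% of all probe sets. Replicates 1 and 3 of 35S::OsHOX24 were apart for 3 (CSLA03, CSLC6 and CSLD2), and for 11.1%. With so few genes, these shares were not tested.

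**Figure D4:**
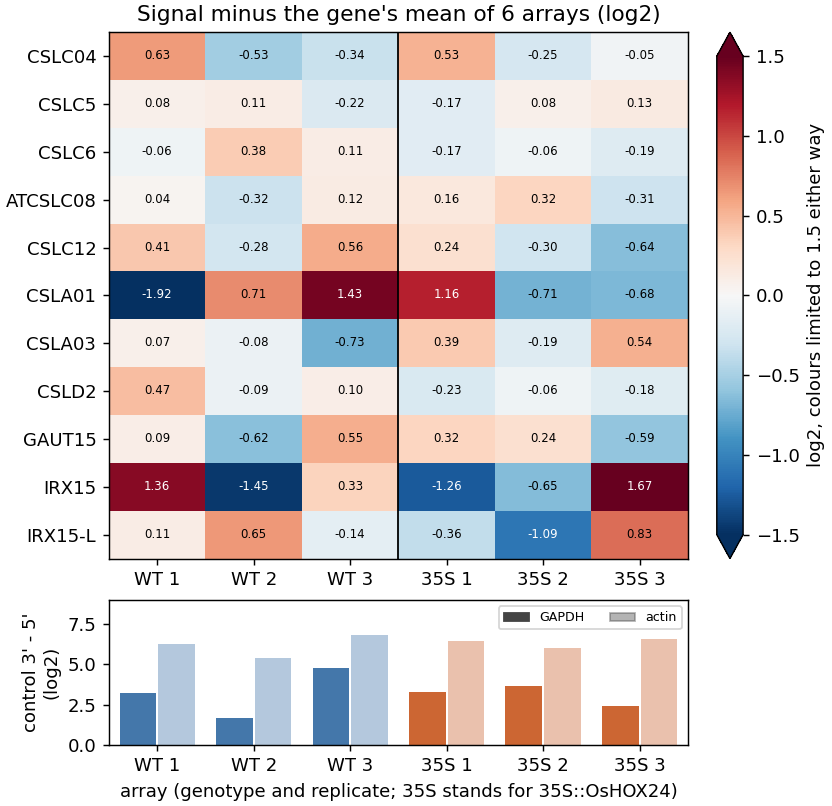
The upper panel gives, for each of the 11 genes (rows) in each array (columns, with 35S standing for 35S::OsHOX24), the signal minus that gene's mean of the 6 arrays (log2, red higher and blue lower), and the lower panel the excess of 3' over 5' signal (log2) of the GAPDH (dark) and actin (light) controls in the same arrays. GAUT15 and ATCSLC08 are low and IRX15-L is high in WT replicate 2 and 35S::OsHOX24 replicate 3, the arrays with the lowest GAPDH values of 1.63 and 2.39, while their actin values of 5.37 and 6.57 are the lowest and the second highest.

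Other genes of wall formation were taken from lists of 92 genes, of which 7 were named here, IRX15, IRX15-L and 5 further genes. None of the 5 was past the thresholds with limma, where 2.53% of all probe sets were. With 5 genes, none is near what that share gives. GUT2, also known as IRX10, and GUT1, its close relative, encode xylosyltransferases of the xylan backbone. GUT2 was 7.61, 7.71 and 7.61 (log2) in WT and 7.16, 7.30 and 7.51 in 35S::OsHOX24. All transgenic arrays were below all WT arrays, as 7.17% of probe sets are separated in one direction or the other. The log2 difference was -0.32 (standard error 0.21, 95% interval -0.85 to 0.20, unadjusted p = 0.181 with limma), while the methods' t-test gave an unadjusted p of 0.0412. GUT1 was between 9.62 and 9.94 (log2) in all 6 arrays, with a log2 difference of 0.06. COB, a membrane-anchored protein that orients cellulose deposition in expanding cells, was between 10.99 and 11.33 in all arrays, with a log2 difference of -0.09 (95% interval -0.61 to 0.43).

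HCT, an enzyme of lignin monomer synthesis, was 10.39, 11.65 and 10.52 (log2) in WT and 10.56, 10.63 and 11.71 in 35S::OsHOX24. It was highest in WT replicate 2 and 35S::OsHOX24 replicate 3, as IRX15-L was, and its log2 difference between genotypes was 0.11 (standard error 0.48). By list, 1 of 7 cellulose accessory genes, 4 of 18 xylan genes, 1 of 16 lignin genes and 1 of 5 root hair markers could be read. None of the listed secondary wall regulators, xylem markers or genes of xyloglucan side chains, pectin modification, nucleotide sugars and callose was named, and these were not analysed here.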

How the data were processed

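Total RNA of 3 WT and 3 35S::OsHOX24 seedling samples was read on Affymetrix arrays, 1 array per sample, with groups from the sample labels. The authors computed the signals with MAS5, whose version is not given in the sources used here; the deposited table holds their log2. The linear 2% trimmed mean was 500.1 in every array, and 163 to 511 probe sets per array were listed at 0, none of them in the genes described. Array medians were 7.24 to 7.42 (log2). The number of arrays limits the precision. Replicates are independent biological replicates according to the study's methods.

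The deposited log2 values of 22746 probe sets, without 64 controls, were compared with limma 3.58.1 in R 4.3.3 (lmFit, eBayes, no covariate, Benjamini-Hochberg adjustment over all probe sets). The 95% intervals are moderated limma intervals for single genes, unadjusted for their number. Scripts were tested on simulated data. Probe sets were named from a platform table and updated to RefSeq symbols (assembly TAIR10.1), which matched 13436 of 13513 with a single gene; another 503 matched several genes, and 8730 have no name here.

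The members and lists were chosen with earlier results of these data known. The rule for named genes took all CESA genes, the lowest p and highest signal of each other family, and any gene past the thresholds or without overlap, and up to 3 genes per list; CSLA01, CSLC5, CSLC6, ATCSLC08 and IRX15 were named beyond it, after their values were seen, so that every gene is accounted for. The planned contrast of secondary and primary CESA genes could not be computed, and the contrast of the IRX15 pair and the CSLC genes was chosen in its place after seeing the data. Alternatives were leaving out arrays, the replicate number as a block, log2(signal + 16), median centring, quantile normalization, array weights, a trended variance, the methods' t-test, a filter at the 40th percentile of signal, and no cross-hybridizing probe sets. Sequences are not printed.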

Additional observations from a re-analysis of the deposited data

How the results depend on the processing

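The count of 0 of 11 genes past the thresholds was 0 in all alternatives, including those without 1 array at a time, except without replicate 1 of both genotypes, where it was 1, CSLA01, with 4 arrays left. The contrast of the IRX15 pair and the CSLC genes, -0.19 (log2), ranged from -0.97 to 0.43 without 1 array or without replicate 1 of both genotypes. Directions turned for genes whose difference was near 0 or whose arrays were widely spread. With array weights the log2 differences became 0.64 for CSLA01, -0.049 for CSLC5, 0.074 for GAUT15 and -0.0017 for GUT1, and with median centring 0.023 for GAUT15. Without 1 array at a time, or without replicate 1 of both genotypes, the ranges were -0.024 to 0.29 for ATCSLC08, -1.76 to 0.53 for CSLA01, -0.074 to 0.51 for CSLC04, -0.084 to 0.16 for CSLC5, -0.33 to 0.28 for GAUT15, -1.03 to 1.07 for IRX15, -0.93 to 0.027 for IRX15-L, -0.019 to 0.14 for GUT1 and -0.26 to 0.51 for HCT; the cause was not tested. CSLA03 and EXPA7 were above 0, and CSLC6, CSLC12, CSLD2, COB and GUT2 below 0, in every alternative run that included them. The methods' t-test, trended variance, replicate block and probe set filters leave a difference unchanged, so they could not turn its direction.

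The deviations of same-numbered arrays from their group means correlated at 0.11, -0.20 and -0.18 over all probe sets, for replicates 1, 2 and 3. With 3 arrays per genotype, these values cannot tell whether same-numbered arrays shared a batch. Replicate 1 of both genotypes was apart from the other arrays for 14.6% of all probe sets. With the replicate number as a block, 0 of the 11 genes were past the thresholds, and over all probe sets 259 were higher and 419 lower, compared with 208 and 367. Counts over all probe sets differed by more than 1.5 times with the methods' t-test (112 and 180) and log2(signal + 16) (29 and 85). They also did above the 40th percentile (17 and 40), where 13647 probe sets were tested and not 22746. For higher probe sets they did so too without WT replicate 1 (316 and 353) and without replicate 1 of both genotypes (324 and 405). The standard error was highest for IRX15, CSLA01 and IRX15-L (1.01, 0.99 and 0.53), and CSLA01, CSLC12, IRX15 and IRX15-L were left out above the 40th percentile.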
